A study of Drosophila melanogaster with 140 samples.

Results

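The 5 genes described here mark which fast neurotransmitter a fly neuron makes and releases. They were chosen by name, as the rows ChAT, VAChT, Gad1, VGAT and VGlut among the 17562 genes of the count table, and not by their values. ChAT encodes choline acetyltransferase, which makes acetylcholine, and VAChT the transporter that loads acetylcholine into synaptic vesicles. Gad1 encodes the neuronal glutamic acid decarboxylase, which makes GABA, and VGAT the vesicular GABA transporter. VGlut encodes the vesicular glutamate transporter and is the usual marker of glutamatergic neurons, since glutamate itself is made in most cells.

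In the Drosophila brain acetylcholine is the main excitatory transmitter and GABA the main inhibitory one, while glutamate acts at the neuromuscular junction and, through a glutamate-gated chloride channel, also inhibits central neurons. A neuron usually carries the enzyme and the vesicular transporter of 1 of these transmitters. Photoreceptors use histamine and glia take transmitters up again and break them down.

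The study examined m6A, the methylated adenosine that Mettl3 (Ime4 in the labels) writes into mRNA, in aging flies and in flies that express the Alzheimer's disease peptide Abeta42. All flies were male. Whole heads carried the ubiquitous daughterless driver DaGal4 with Mcherry RNAi (called control below) or with Ime4 RNAi (called Mettl3 RNAi) at 5d and 34d, with 3 input and 3 m6A-IP libraries in each of the 4 groups. Heads at 6d carried the pan-neuronal driver ElavGal4c155 with UAS-mcd8GFP (3 pairs of libraries) or UAS-AB(2x), the Abeta42 transgene (2 pairs), and the same genotypes were measured in brains (3 against 3). About 500 cells were sorted from pools of dissected brains of control and Mettl3 RNAi flies at 5d and 34d, as elavGFP+ neurons with the pan-neuronal ElavGal4 driver (3 libraries at 5d and 4 at 34d in each genotype) and as repoGFP+ glia and repoGFP- cells with the pan-glial RepoGal4 driver (3 libraries in each of 8 groups). In the TRAP libraries, at 5d and 34d, a FLAG-tagged ribosomal protein was driven in neurons (ElavGal4) or glia (RepoGal4) together with either RNAi. The immunoprecipitate (TRAP-IP) thus holds ribosome-bound RNA and the input whole brain RNA (3 or 4 libraries a group). In RepoGal4 flies both RNAi lines act in glia, so the repoGFP- cells were not themselves targets of the RNAi.

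The libraries held a median of 29612398 counts in the aging heads, 20008870 in the Abeta42 heads, 19851143 in the Abeta42 brains, 16658797 in the elavGFP+ cells, 12953433 in the repo sorts and 7692584 (2132983 to 17891755) in TRAP. Marker genes of the labelled tissues were largely where the labels put them. The summed level of 10 neuronal markers ran from 11713 to 19335 CPM (counts scaled to the size of each library) in the elavGFP+ libraries, against 303 to 910 CPM for 8 glial markers. In repoGFP+ cells the glial sum was 3106 to 20984 CPM and in repoGFP- cells 114 to 213 CPM, with moody at 0 in the control cells at 34d. The neuronal sum was nevertheless 6912 to 10231 CPM in repoGFP+ cells, against 9832 to 13452 CPM in repoGFP- cells. The libraries labelled brain also held photoreceptor markers at a high level, 28311 to 56523 CPM for 8 genes in the Abeta42 experiment.

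ChAT (FBgn0000303) and VAChT (FBgn0270928) form the nested cholinergic locus on the plus strand of chromosome 3R. In the Release 6 assembly (dm6) ChAT spans 18705501 to 18732344 and VAChT 18705501 to 18718916, so that both start at the same base. Their annotated exons share 606 bases, and reads on shared bases overlap both genes. The union mode of counting drops a read that overlaps 2 genes, so that such reads enter neither count. Gad1 (FBgn0004516) lies on chromosome 3L at 4074077 to 4088744 on the minus strand, VGAT (FBgn0033911) on 2R at 14198478 to 14201249 on the minus strand, and VGlut (FBgn0031424) on 2L at 2400295 to 2410662 on the plus strand. VGlut shares 39 exon bases with CG18641 on the opposite strand, and Gad1 and VGAT share none. Whether the counting used strand is not given in the sources used here. The exons described here come from another annotation release than the one the authors counted on.

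Per length, as CPM per kilobase of exon not shared with another gene (RPKM), Gad1 had the highest level of the 5 members in the control head inputs, brains, sorted cells and TRAP inputs, though not in every TRAP-IP: in the glial TRAP-IP of control at 34d ChAT was at 99.5 ± 16.3 RPKM and Gad1 at 75.5 ± 5.47 (SD, n = 4). In control heads at 5d, Gad1 was at 177 ± 34.2 RPKM (SD, n = 3), ChAT at 34.1 ± 5.05, VGAT at 24.5 ± 2.15, VGlut at 21.8 ± 3.74 and VAChT at 11.97 ± 0.964. VGAT and VGlut, neighbours in this order, lay within 1 SD of each other. At 34d the order became Gad1 (77.0 ± 1.55), ChAT (24.5 ± 0.959), VGlut (22.5 ± 0.543), VAChT (13.9 ± 1.26) and VGAT (13.2 ± 0.583), with VAChT and VGAT within 1 SD.

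The GFP heads at 6d, of another driver and experiment, had Gad1 at 149.8 ± 2.63 RPKM (SD, n = 3), ChAT at 31.7 ± 1.68, VAChT at 29.7 ± 0.915, VGlut at 28.8 ± 1.23 and VGAT at 19.4 ± 0.541. VAChT and VGlut lay within 1 SD of each other. In the brains of the same genotype Gad1 was at 276 ± 15.3 RPKM (SD, n = 3), VAChT at 87.1 ± 6.59, VGlut at 79.3 ± 3.02, ChAT at 64.3 ± 2.75 and VGAT at 50.0 ± 2.53, and VAChT and VGlut differed by more than 1 SD of either. In elavGFP+ control neurons at 5d the order was Gad1 (2521 ± 691), VGAT (138 ± 12.4), ChAT (96.9 ± 12.8), VGlut (59.6 ± 3.46) and VAChT (31.7 ± 5.83). These sets of libraries were made with different protocols and scaled separately, so that the levels stand side by side and were not tested against each other.

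The first comparison asked how the members changed between 5d and 34d in heads. Both GABAergic genes fell in control heads. Gad1 was at 507, 727 and 723 CPM in the 3 control libraries at 5d and at 284, 289 and 278 CPM at 34d. VGAT was at 59.8, 68.0 and 71.0 CPM at 5d and at 36.1, 36.7 and 33.7 CPM at 34d. For both genes all 34d libraries lay below all 5d libraries, although control 5d replicate 1 was the lowest of its group for each.

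The log2 fold change was −1.22 ± 0.16 (SE) for Gad1 (adjusted p = 0.000916) and −0.92 ± 0.09 for VGAT (adjusted p = 0.000363), from edgeR's quasi-likelihood test with Benjamini-Hochberg adjustment over all genes tested, which gives every adjusted p below. ChAT, at 96.2, 126 and 126 CPM at 5d, stood at 81.5, 81.7 and 87.3 CPM at 34d and fell by 0.49 ± 0.12 on the log2 scale (adjusted p = 0.0128). The call for ChAT was lost without control 34d replicate 1 (adjusted p = 0.0583) or replicate 2 (0.0596). VAChT, the partner of ChAT, did not pass the test and was at 70.5, 80.9 and 81.7 CPM at 5d and at 82.1, 90.3 and 98.5 CPM at 34d (log2 fold change 0.20 ± 0.10, adjusted p = 0.14). VGlut was at 99.2 to 138 CPM at 5d and 124 to 130 CPM at 34d (0.03 ± 0.13, adjusted p = 0.879). Thus 3 of the 5 members passed the test, where 51.5% of all genes did, so that the count of members is near the background and only the sizes and directions set them apart from each other.

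**Figure D1:**
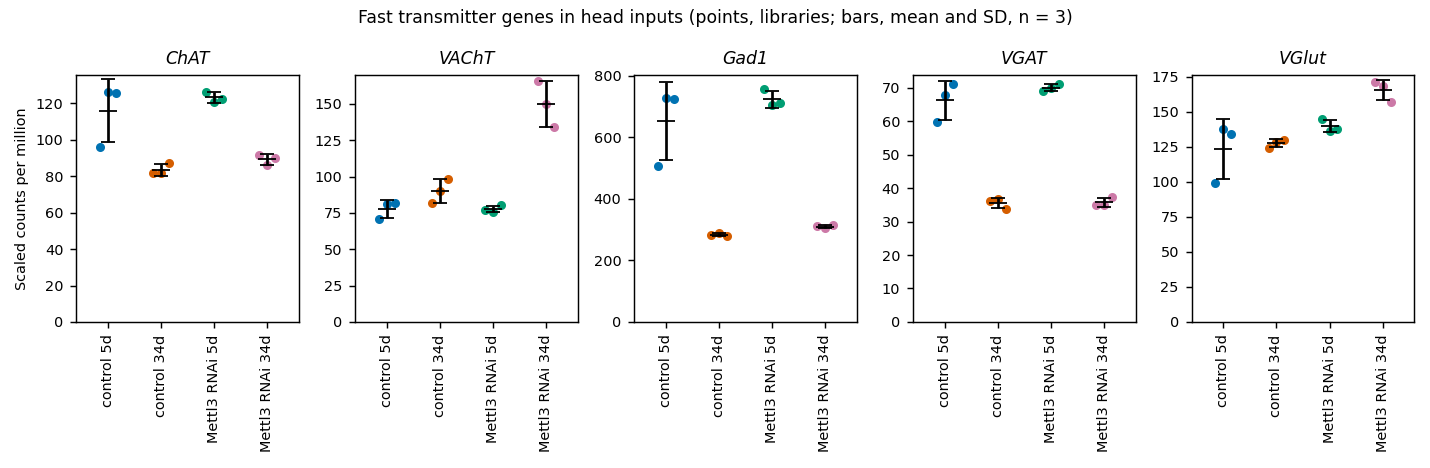
Level of each member in the input libraries of heads, in CPM on axes that start at 0 and differ between genes. Points are libraries and bars the mean and SD of 3 libraries. Gad1 and VGAT lie lower at 34d in both genotypes, and VAChT is highest in Mettl3 RNAi heads at 34d (134 to 166 CPM).

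Mettl3 itself, the target of the RNAi, was at 5.45, 5.13 and 5.36 CPM in control heads at 5d and at 2.27, 4.73 and 3.66 CPM in Mettl3 RNAi heads, a log2 fold change of −0.57 ± 0.26 that missed the threshold (adjusted p = 0.468). At 34d it was at 6.69, 6.73 and 7.14 CPM in control and at 2.23, 2.12 and 2.53 CPM with the RNAi (−1.59 ± 0.13, adjusted p = 4.35e-08). The groups did not overlap at either age.

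In Mettl3 RNAi heads all 5 members passed the test between 5d and 34d, where 71.8% of all genes did. The falls had nearly the same size as in control. Gad1 went from 755, 705 and 709 CPM to 311, 304 and 314 CPM (−1.23 ± 0.05, adjusted p = 6.35e-09), VGAT from 68.9 to 71.0 CPM to 34.9 to 37.3 CPM (−0.98 ± 0.05, adjusted p = 4.22e-08), and ChAT from 121 to 126 CPM to 86.1 to 91.6 CPM (−0.47 ± 0.05, adjusted p = 5.99e-06). VAChT rose from 77.3, 75.8 and 80.3 CPM to 166, 150 and 134 CPM (0.94 ± 0.07, adjusted p = 5.81e-07), and VGlut from 137 to 145 CPM to 157 to 171 CPM (0.24 ± 0.05, adjusted p = 0.00152).

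Only for VAChT among the members did the change with age itself differ between the genotypes. The difference (Mettl3 RNAi minus control) was 0.73 ± 0.13 (adjusted p = 0.0212), in a test that 2.03% of genes passed. It was 0.01 ± 0.13 for ChAT, −0.02 ± 0.16 for Gad1, −0.07 ± 0.10 for VGAT and 0.20 ± 0.14 for VGlut. Leaving out 1 of 6 libraries (replicate 1 or 2 of control 34d, Mettl3 RNAi 5d or Mettl3 RNAi 34d) ended the call of the VAChT difference (adjusted p between 0.0557 and 0.075) while its size stayed between 0.66 and 0.73. For VGlut, leaving out control 5d replicate 1 gave 0.34 (adjusted p = 0.00843).

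Compared at 1 age, no member passed with Mettl3 RNAi at 5d, where 0.173% of genes did, and the log2 fold changes ran from 0.01 (VAChT) to 0.18 (VGlut). At 34d VAChT (0.72 ± 0.08, adjusted p = 0.000197) and VGlut (0.36 ± 0.04, adjusted p = 3.88e-06) were higher, and Gad1 was higher by 0.12 ± 0.04 (adjusted p = 0.0354). That made 3 of 5 members where 40.8% of genes passed. The call for Gad1 was lost without any 1 of the 6 libraries (adjusted p between 0.0589 and 0.115), and ChAT (0.08 ± 0.04) and VGAT (−0.00 ± 0.06) did not pass. At 34d all 10 neuronal markers also passed as higher with Mettl3 RNAi, with a median of 0.38 and a summed level of 6563 to 6853 CPM against 5101 to 5507 CPM in control. Their part in the rise of VAChT and VGlut was not tested.

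Other cell types in the head moved with age as well. The summed photoreceptor markers were at 38674 to 59979 CPM in control heads at 5d and 66305 to 67944 CPM at 34d, with 2 of 8 genes past the test as higher and none lower, and the summed neuronal markers at 4924 to 6170 CPM and 5101 to 5507 CPM, with 3 of 10 higher and 1 lower. All 6 muscle markers fell, with a median of −2.54. None of these markers was at 0, and their part in the changes of the 5 genes was not tested. In such bulk samples fewer cells of a type and less RNA per cell cannot be told apart.

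Of all 10512 genes tested 2473 rose and 2936 fell in control heads with age (51.5% passed). Of 10 GABAergic genes on a list of uptake, breakdown and receptor genes, 6 fell and none rose in control heads with age (median −0.48 on the log2 scale, −0.05 over all genes). They included Gat, the GABA transporter of the plasma membrane (−1.11 ± 0.12, adjusted p = 0.000533), and Lcch3, a GABA-A receptor subunit (−1.03 ± 0.08, adjusted p = 0.000165). Of 15 cholinergic genes 5 rose and 6 fell, with nAChRbeta3, a nicotinic receptor subunit, the largest rise (2.03 ± 0.09, adjusted p = 4.56e-05), next to nAChRalpha5 (0.62 ± 0.11) and the muscarinic receptor mAChR-A (0.52 ± 0.11). All of the exon bases of nAChRbeta3 are shared with another annotated gene, so that its count is uncertain. Of 13 glutamatergic genes 1 rose and 4 fell, Gdh, glutamate dehydrogenase, by 1.07 ± 0.12. With Mettl3 RNAi the GABAergic genes split 2 up and 7 down over the same ages, and Grd, a further GABA receptor subunit, led the falls (−1.12 ± 0.10). Of the whole list nAChRalpha3 alone passed the test of the difference between genotypes (1.00 ± 0.14, adjusted p = 0.00975), in the same direction as VAChT.

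The m6A-IP asks how much of a transcript is pulled down by an antibody against m6A. The ratio here is that of m6A-IP to input counts over all exons of a gene, so that a short modified stretch of a long transcript weighs little in it. VGAT had the highest ratio of the members. In control heads its log2 ratio was 1.34, 1.25 and 1.08 in the 3 pairs at 5d and 0.70, 0.95 and 1.11 at 34d. VAChT followed with 0.38, 0.37 and 0.59 at 5d and 0.58, 0.94 and 0.82 at 34d. Gad1 lay below input in all 6 pairs, between −0.34 and −0.12, while ChAT was at 0.11 to 0.31 at 5d and at −0.25 to −0.16 at 34d.

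In the paired test against input, VGAT (1.20 ± 0.09), VAChT (0.42 ± 0.09), VGlut (0.22 ± 0.09) and Gad1 (−0.24 ± 0.10) passed in control heads at 5d, 4 of 5 members where 81.2% of genes passed. At 34d VGAT (1.07 ± 0.08), VAChT (0.93 ± 0.07) and VGlut (0.37 ± 0.06) passed, 3 of 5 with 83.8% of genes. The calls for Gad1 and VGlut at 5d were small: that of Gad1 was lost without any 1 of the 3 pairs (adjusted p between 0.0555 and 0.183) and that of VGlut without pair 1 (0.0537) or pair 3 (0.111). Scaling by RLE in place of TMM moved ChAT at 5d past the threshold (0.26, adjusted p = 0.012) and Gad1 out of it (−0.14, adjusted p = 0.215).

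In Mettl3 RNAi heads all 5 members passed at 5d, where 81.8% of genes did: VGAT at 1.38 ± 0.07, VAChT at 1.04 ± 0.07, VGlut at 0.72 ± 0.06, ChAT at 0.50 ± 0.06 and Gad1 at −0.45 ± 0.07. At 34d, where 78.2% passed, VGAT (1.27 ± 0.09), VAChT (1.02 ± 0.09), Gad1 (−0.44 ± 0.09) and ChAT (0.21 ± 0.09, lost without pair 2, adjusted p = 0.0686, or pair 3, 0.304) passed and VGlut did not (0.16 ± 0.10), though it did without pair 1 (0.33, adjusted p = 0.00799).

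Tested directly, the ratio was higher with Mettl3 RNAi at 5d for VAChT (0.54 ± 0.11, adjusted p = 0.000641) and VGlut (0.41 ± 0.10, adjusted p = 0.00657). In this test 19% of genes passed, 537 as higher and 1490 as lower, with a median of 0.06 over all genes. The ratio is scaled over all genes of a library, so that a higher value alone does not show more m6A on a transcript. For VAChT the 3 RNAi pairs (0.88 to 1.08) lay above the 3 control pairs, and for VGlut likewise (0.61 to 0.72 against 0.10 to 0.39). The call for VGlut was lost without control pair 2 (0.33, adjusted p = 0.0534), and without control pair 3 Gad1 passed as lower (−0.38, adjusted p = 0.0136). At 34d Gad1 was lower with the RNAi (−0.42 ± 0.10, adjusted p = 0.00241), in a test that 32.3% of genes passed, and VAChT was not different by the test (0.04 ± 0.11, 95% interval −0.18 to 0.27). Without Mettl3 RNAi pair 3 VGlut also passed there as lower (−0.39, adjusted p = 0.00656).

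**Figure D2:**
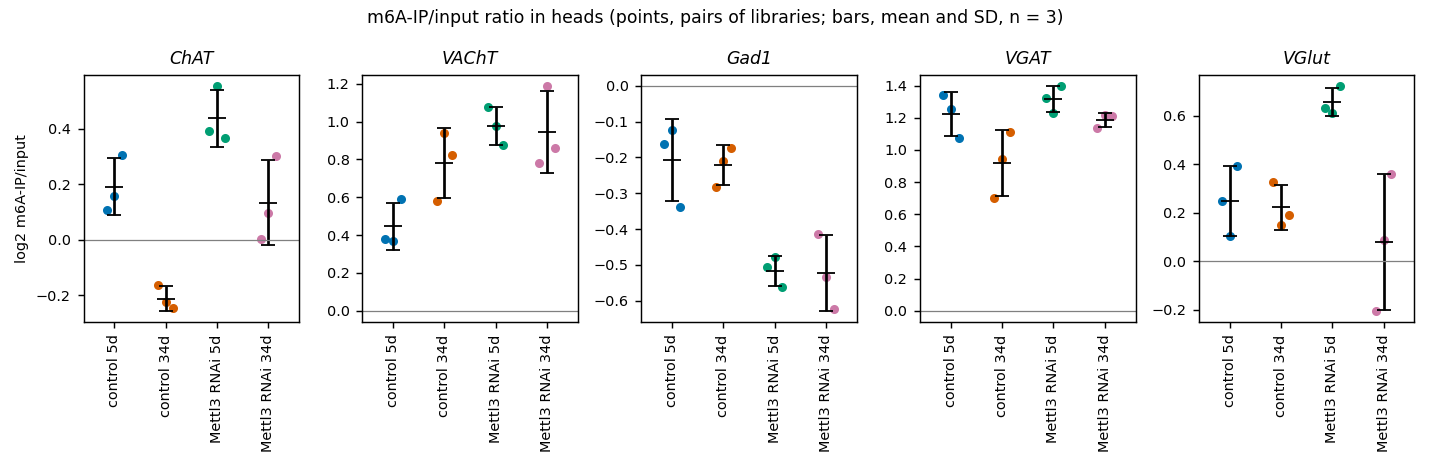
Log2 ratio of m6A-IP to input for each member in heads, with all head libraries scaled together and an axis of its own for each gene. Points are pairs of libraries, bars the mean and SD of 3 pairs, and the grey line is an equal level in both. VGAT and VAChT lie above input in all 12 pairs and Gad1 below it in all 12, with lower values for Gad1 in Mettl3 RNAi.

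With age the ratio of control heads fell for ChAT (−0.40 ± 0.11, adjusted p = 0.0066) and rose for VAChT (0.34 ± 0.11, adjusted p = 0.0252), 2 of 5 members with 23.7% of genes past the test. The median over all genes was −0.16, so that ChAT fell by less relative to it and VAChT rose by more. ChAT did not pass with RLE scaling (−0.22, adjusted p = 0.185), and VAChT did not without control 34d pair 2 (0.26, adjusted p = 0.174) or pair 3 (0.32, 0.0947) or control 5d pair 1 (0.31, 0.054) or pair 2 (0.31, 0.0956). VGAT passed as lower without control 34d pair 3 (−0.40, adjusted p = 0.0369) or control 5d pair 3 (−0.37, adjusted p = 0.0185). In Mettl3 RNAi heads VGlut fell (−0.52 ± 0.13, adjusted p = 0.0341; 3.9% of genes passed), a call that was lost without 34d pair 2 (adjusted p = 0.182) or 5d pair 1 (0.0773) or pair 2 (0.0827), and ChAT passed as lower without 34d pair 3 (−0.36, adjusted p = 0.0451). No member passed the test of the difference between genotypes, in which 1.04% of genes did, and VGlut was nearest (−0.55 ± 0.16, adjusted p = 0.0775). It passed with RLE scaling (−0.72, adjusted p = 0.0333) and without Mettl3 RNAi 34d pair 3 (−0.69, 0.0208) or control 5d pair 3 (−0.62, 0.0255).

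Among the other transmitter genes the ratios were far larger in both directions. Eaat2, a glutamate transporter, was at 2.11 ± 0.10 and Gat at −1.91 ± 0.11 in control heads at 5d, and cholinergic genes had a median of 1.04 with 9 of 14 tested above input and 5 below, against a median of −0.14 over all genes, 81.2% of which passed. Several of these genes fell with Mettl3 RNAi: Eaat2 fell by 2.44 ± 0.12 at 5d and 2.701 ± 0.12 at 34d, GluRIA, an ionotropic glutamate receptor subunit, by 1.37 ± 0.14 and 1.85 ± 0.12. At 34d 9 of 15 cholinergic genes fell and 1 rose, where 2106 of 10678 genes fell and 1345 rose.

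Pan-neuronal Abeta42 was compared with GFP at 6d, in heads and in brains. Gad1 and VAChT were lower in both tissues. In heads Gad1 was at 543, 551 and 562 CPM with GFP and at 413 and 392 CPM with Abeta42, and VAChT at 187, 193 and 199 CPM against 161 and 125 CPM. In brains Gad1 was at 1030, 1063 and 954 CPM against 856, 713 and 680 CPM, and VAChT at 517, 579 and 600 CPM against 491, 472 and 453 CPM. The groups did not overlap for either gene in either tissue.

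In heads the log2 fold change was −0.45 ± 0.06 for Gad1 (adjusted p = 0.000107), −0.43 ± 0.10 for VAChT (adjusted p = 0.00721) and −0.20 ± 0.07 for VGlut (adjusted p = 0.0369), so that 3 of 5 members passed where 36% of genes did. ChAT was just short of the threshold (−0.21 ± 0.08, adjusted p = 0.0564) and passed without Abeta42 replicate 1 (−0.35, adjusted p = 0.00043). VGAT was at 50.6 to 53.2 CPM with GFP and at 55.3 and 52.1 CPM with Abeta42 (0.04 ± 0.06), so the GABA transporter did not pass where its enzyme did. The call for VGlut was lost without Abeta42 replicate 2 (−0.11, adjusted p = 0.267) or GFP replicate 1 (−0.19, 0.111) or 3 (−0.16, 0.134).

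In brains Gad1 (−0.44 ± 0.09, adjusted p = 0.0104) and VAChT (−0.26 ± 0.07, adjusted p = 0.0257) passed, 2 of 5 with 31% of genes, and ChAT (−0.10 ± 0.05), VGAT (0.06 ± 0.07) and VGlut (−0.09 ± 0.06) did not. Gad1 was lost without GFP replicate 2 (−0.38, adjusted p = 0.0514), and VAChT without replicate 2 or 3 of either group (−0.26 to −0.19, adjusted p between 0.0536 and 0.104). The summed photoreceptor markers were also lower with Abeta42 (7 of 8 genes past the test as lower in each tissue), at 42667 to 43579 CPM against 61795 to 62927 CPM in heads and at 28311 to 36178 CPM against 51221 to 56523 CPM in brains. The summed neuronal markers (9 of 10 lower in heads and 3 of 10 in brains) were at 5508 to 6140 CPM against 6937 to 7472 CPM in heads and at 10576 to 12637 CPM against 12766 to 13250 CPM in brains. The summed fat body markers were at 3548 to 4195 CPM with Abeta42 against 7769 to 8164 CPM with GFP in heads. In brains they were at 1829 to 3834 CPM against 5659 to 7183 CPM. Sums of hemocyte and glial markers were also lower with Abeta42 without overlap in both tissues. The muscle sum was lower in heads and overlapped in brains. No marker was at 0, and the part of these markers in the differences was not tested.

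The m6A-IP to input ratio of heads was higher with Abeta42 for VAChT (0.25 ± 0.09, adjusted p = 0.0356) and VGAT (0.28 ± 0.10, adjusted p = 0.0384), where 24.4% of genes passed. With 2 Abeta42 pairs both calls were fragile: each was lost without Abeta42 replicate 1 (0.16, adjusted p = 0.421, for VAChT and 0.10, 0.679, for VGAT), without GFP replicate 2 (0.25, 0.0587, and 0.23, 0.118) and without GFP replicate 3 (0.19, 0.238, and 0.29, 0.0787), and that of VAChT without Abeta42 replicate 2 (0.32, 0.0579). Of the other transmitter genes, 22 of 37 tested fell and 5 rose in heads and 20 fell and 4 rose in brains, with medians of −0.23 and −0.20 against 0.01 and 0.02 over all genes. Of all genes 1785 fell and 1888 rose out of 10210 in heads (36% passed), and 1464 fell and 1566 rose out of 9759 in brains (31%). Rdl, the main GABA-A receptor subunit, fell by 0.48 ± 0.08 in heads and Gabat, which breaks GABA down, by 0.57 ± 0.13 in brains, while mAChR-A rose in both (0.77 ± 0.06 and 0.97 ± 0.09).

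In sorted elavGFP+ neurons the targeted Mettl3 was at 2.75 to 11.1 CPM in control and 0.196 to 2.16 CPM with the RNAi at 5d, and at 3.36 to 8.08 CPM and 0.974 to 1.22 CPM at 34d. The groups did not overlap, although the test over all genes did not call it (−2.62 ± 0.90, adjusted p = 0.864, and −2.29 ± 0.58, adjusted p = 0.339). None of the 5 members passed in any of the 5 comparisons of these cells. With age 4.35% of genes passed in control and 3.83% in Mettl3 RNAi neurons.

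Gad1 in control neurons was at 8691, 12076 and 7091 CPM at 5d and at 4771, 6119, 7277 and 6102 CPM at 34d. The 34d libraries overlapped the 5d group, and the log2 fold change was −0.61 ± 0.18 (adjusted p = 0.0906). It passed without control 5d replicate 3 (−0.77, adjusted p = 0.0453). VAChT was lower on average at 34d in both genotypes, at 84.6 to 173 CPM against 162 to 232 CPM in control (−0.57 ± 0.24, adjusted p = 0.239) and at 49.4 to 148 CPM against 179 to 292 CPM with Mettl3 RNAi, where the groups did not overlap (−1.22 ± 0.34, adjusted p = 0.082). DESeq2 called the latter (−1.25, adjusted p = 0.0324).

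ChAT was at 209 to 310 CPM against 282 to 368 CPM (−0.36 ± 0.15) and VGAT at 246 to 371 CPM against 347 to 411 CPM (−0.18 ± 0.15) in control neurons at 34d and 5d. VGlut pointed the other way in both genotypes, at 267 to 606 CPM against 319 to 358 CPM in control (0.53 ± 0.23, adjusted p = 0.261) and at 248 to 581 CPM against 160 to 332 CPM with Mettl3 RNAi (0.77 ± 0.33, adjusted p = 0.24). Without control 34d replicate 2 it passed in control (0.74, adjusted p = 0.00776). The 95% intervals of the control changes reached −0.96 for Gad1, −1.04 for VAChT and −0.65 for ChAT. They are normal approximations built from the SE and run narrow with so few libraries. Changes as large as the fall of ChAT in control heads lie inside these intervals. The falls of Gad1 and VGAT in control heads were larger than their own intervals in these neurons reached. Heads and sorted neurons were scaled separately.

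**Figure D3:**
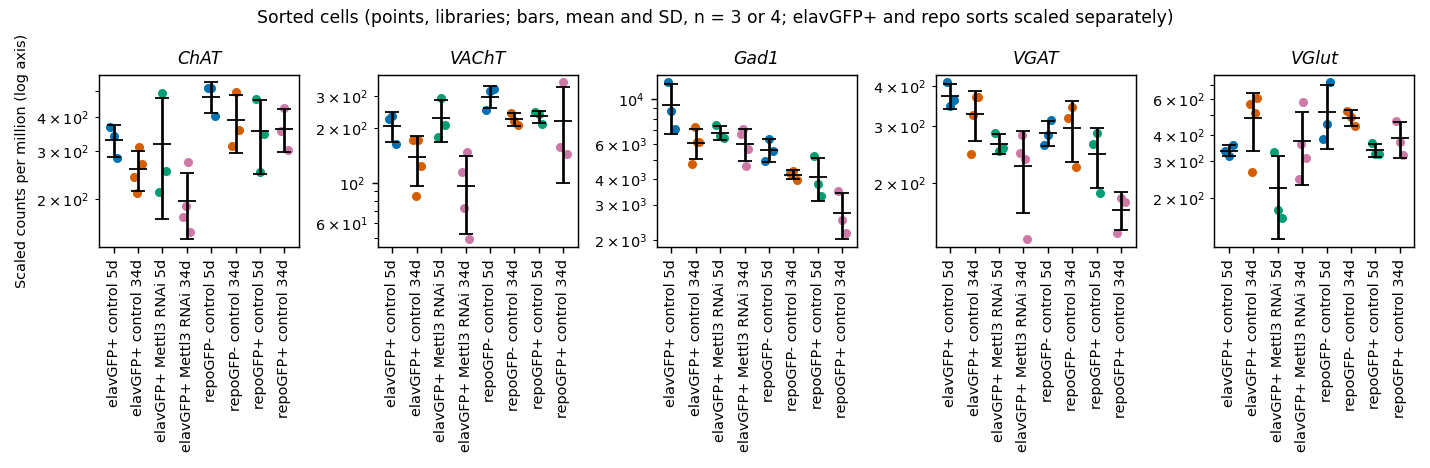
Level of each member in the sorted cells, in CPM. Points are libraries of about 500 cells and bars the mean and SD of 3 or 4 libraries, with the elavGFP+ set and the repo set scaled separately. The libraries of a group spread widely, and no elavGFP+ comparison separated a member past the test.

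No member passed the test of Mettl3 RNAi in elavGFP+ neurons. At 5d 0% of genes passed, with 571 of 10464 genes at an unadjusted p under 0.05 and 51 called by DESeq2, and at 34d 0.0366% (4 genes, with 837 under 0.05 and 183 called by DESeq2). VGAT was at 251 to 286 CPM with the RNAi and 347 to 411 CPM in control at 5d (−0.48 ± 0.13, adjusted p = 0.815), without overlap, and at 134 to 282 CPM against 246 to 371 CPM at 34d (−0.53 ± 0.21, adjusted p = 0.579). The test of the difference in aging between genotypes likewise passed for 0% of genes (708 under 0.05 unadjusted, 20 called by DESeq2).

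The gene whose level followed Gad1 most closely between sorts was its neighbour. Over the 26 elavGFP+ and repoGFP- libraries, after removal of group means, CG14989 had a Pearson r of 0.89 with Gad1, the highest of 6791 genes. The span of CG14989 overlaps that of Gad1 on the opposite strand, but their annotated exons share no bases. CG14989 was at 3543 to 8941 CPM in elavGFP+ cells and at 586 to 927 CPM in the inputs of control and Mettl3 RNAi heads. In control elavGFP+ cells its mean was 6886 CPM at 5d and 7312 CPM at 34d. Its share in the level of Gad1 was not tested, and its values are given here because they were seen to be high.

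The repoGFP+ cells should hold glia, yet their members' levels lay close to those of repoGFP- cells. The direction was lower in repoGFP+ for each of the 5 genes in all 4 comparisons, with log2 fold changes from −0.04 to −0.86. Gad1 was at 5205, 3808 and 3313 CPM in repoGFP+ and at 4904, 6366 and 5524 CPM in repoGFP- control cells at 5d, with overlap (−0.46 ± 0.19, adjusted p = 0.149). No member passed there, where 18.1% of genes did. The glial genes on the transmitter list differed far more, with Gs2, glutamine synthetase, at 7.09 ± 0.42 and Gat at 8.29 ± 1.08 on the log2 scale.

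At 34d in control, VGAT was at 140, 180 and 175 CPM in repoGFP+ and at 319, 344 and 224 CPM in repoGFP- cells. The groups did not overlap (−0.86 ± 0.20), and it was the 1 member to pass (adjusted p = 0.0498; 6.69% of genes passed). The value sat at the threshold and was lost without any of 5 libraries, replicates 1, 2 and 3 of repoGFP+ and 1 and 2 of repoGFP- (adjusted p between 0.0906 and 0.214). Gad1 passed without repoGFP+ replicate 1 (−0.85, adjusted p = 0.0102) and not with all libraries (−0.65, adjusted p = 0.0748).

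In Mettl3 RNAi flies at 5d, 3 of 5 members were lower in repoGFP+ cells where 23% of genes passed: ChAT (−0.59 ± 0.13, adjusted p = 0.0162), Gad1 (−0.38 ± 0.08, adjusted p = 0.0108) and VGAT (−0.66 ± 0.18, adjusted p = 0.0327). ChAT was at 282, 373 and 385 CPM against 552, 493.2 and 541 CPM, without overlap. Of repoGFP- cells, leaving out replicate 1 or 3 ended the call of ChAT (adjusted p = 0.0598 and 0.0636) and replicate 1 or 2 that of Gad1 (0.0619 and 0.063). VGAT was lost without any repoGFP- replicate or repoGFP+ replicate 1 or 3 (adjusted p between 0.0652 and 0.129), and VAChT passed without repoGFP+ replicate 2 (−0.51, adjusted p = 0.0336). At 34d with Mettl3 RNAi no member passed, against 12.4% of genes, and ChAT was nearest (−0.44 ± 0.12, adjusted p = 0.0668). Gad1 (−0.90, adjusted p = 0.0277) passed there without repoGFP+ replicate 1 and VGlut (−0.50, 0.0226) without replicate 2. In control 5d cells Gad1 passed without repoGFP+ replicate 1 (−0.65, adjusted p = 0.0273).

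The neuronal markers stood beside the members in these sorts, with sums of 8900 to 10082 CPM in repoGFP+ and 11350 to 13272 CPM in repoGFP- control cells at 5d. The glial sum of repoGFP+ control cells was 14017 to 19346 CPM at 5d and 3106 to 5931 CPM at 34d. No neuronal marker was at 0, and their part in the levels of the 5 genes was not tested. The difference between repoGFP+ and repoGFP- cells did not itself change with age in control for any member (0.0305% of genes passed, 934 of 9834 under 0.05 unadjusted and 228 called by DESeq2), with VGAT the largest (−0.62 ± 0.28, adjusted p = 0.518).

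Within the sorts, Gad1 in repoGFP- cells was lower at 34d in both genotypes. In Mettl3 RNAi flies it went from 5928, 5858 and 5506 CPM to 4234, 4918 and 4620 CPM (−0.33 ± 0.06, adjusted p = 0.0316; 2.31% of genes passed), and in control flies from 4904, 6366 and 5524 CPM to 4283, 4410 and 3987 CPM (−0.40 ± 0.09, adjusted p = 0.0872; 1.2% of genes passed). In neither case did the ages overlap, and the call in Mettl3 RNAi flies was lost without 34d replicate 1 or 3 or any 5d replicate (adjusted p between 0.0764 and 0.145). In control it was gained without 5d replicate 1 (−0.49, adjusted p = 0.0492). VAChT showed a similar size in both (−0.45 ± 0.10, adjusted p = 0.0515, and −0.41 ± 0.13, adjusted p = 0.187), and passed in Mettl3 RNAi flies without 5d replicate 1 (−0.53, adjusted p = 0.0367).

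In repoGFP+ cells no member passed with age in control (0.12% of genes) or with Mettl3 RNAi (0%, with 884 of 9108 genes under 0.05 unadjusted and 373 called by DESeq2). No member passed with Mettl3 RNAi in either sort at either age, where 0% of genes passed in all 4 comparisons, with 344 to 648 genes under 0.05 unadjusted and 4 to 232 called by DESeq2. Mettl3 was at 0.17 to 2.49 CPM with the RNAi against 3.71 to 10.9 CPM in repoGFP+ control cells at 5d and at 0 to 3.29 CPM against 5.34 to 12.3 CPM at 34d. In repoGFP- cells, which lack the driver, it was at 3.03 to 11.4 CPM with the RNAi and 5.49 to 7.84 CPM in control.

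TRAP compared ribosome-bound RNA of a driver's cells with whole brain RNA. With the neuronal driver ChAT was enriched in all 4 groups. In control at 34d its log2 ratio of TRAP-IP to input was 1.46, 0.70, 1.39 and 1.26 in the 4 pairs, and all 5 members passed as higher (ChAT 1.23 ± 0.12, VAChT 1.13 ± 0.11, Gad1 0.65 ± 0.09, VGAT 1.31 ± 0.15 and VGlut 0.52 ± 0.10), where 52.8% of genes passed in either direction. At 5d ChAT alone passed in control (0.77 ± 0.21, adjusted p = 0.0366; 11.1% of genes passed), and it was lost without pair 2 (0.65, adjusted p = 0.35) or pair 3 (0.70, 0.332). VGAT passed there without pair 1 (0.90, adjusted p = 2.39e-06), whose IP had the lowest values of Gad1 (385 CPM), VGlut (37.3 CPM) and VAChT (113 CPM) in its group. That IP was also the smallest library of the series, with 2132983 counts.

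With Mettl3 RNAi in neurons ChAT (1.25 ± 0.11) and VAChT (0.93 ± 0.15) were higher and Gad1 (−0.59 ± 0.11) lower in TRAP-IP at 5d, 3 of 5 members with 50.4% of genes. At 34d ChAT (1.63 ± 0.15), VAChT (1.44 ± 0.16), VGAT (1.15 ± 0.32) and VGlut (0.50 ± 0.15) were higher, 4 of 5 with 42.6%, and VGlut was lost without pair 2 (0.53, adjusted p = 0.0611) or pair 3 (0.45, 0.132). Gad1 spread from −0.43 to 0.84 over these 4 pairs, with replicate 4 the highest.

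The cholinergic genes were enriched in the glial TRAP-IP of control as well. In control at 5d ChAT (0.58 ± 0.12) and VAChT (0.76 ± 0.13) were higher and Gad1 (−0.99 ± 0.14) lower than in input, 3 of 5 members with 56.4% of genes. At 34d ChAT (0.99 ± 0.19), VAChT (1.40 ± 0.15), VGAT (1.34 ± 0.21) and VGlut (0.79 ± 0.17) were higher, 4 of 5 with 19.3%, VGlut not without pair 1 (0.66, adjusted p = 0.0735). The summed neuronal markers of this TRAP-IP were at 7312 to 9796 CPM at 5d against 4741 to 5770 CPM in its input, and the glial markers at 3433 to 5304 CPM against 715 to 956 CPM. Their part in the enrichment of the members was not tested.

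With Mettl3 RNAi in glia no member was higher in TRAP-IP at 5d, and Gad1 (−1.47 ± 0.10), VGAT (−0.79 ± 0.16) and VGlut (−0.54 ± 0.14) were lower than in input, 3 of 5 with 49.9% of genes. There the neuronal marker sum was 4817 to 5886 CPM in TRAP-IP and 4926 to 5949 CPM in input. VGlut was lost without pair 2 (−0.48, adjusted p = 0.0577) or pair 3 (−0.44, 0.0552). At 34d ChAT (0.81 ± 0.15), VAChT (0.92 ± 0.19) and VGAT (0.87 ± 0.21) were higher, 3 of 5 with 23.2%, VGAT not without pair 1 (0.80, adjusted p = 0.0923) or pair 3 (0.84, 0.0544). Gad1 passed as lower without pair 4 (−0.51, adjusted p = 0.0288).

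**Figure D4:**
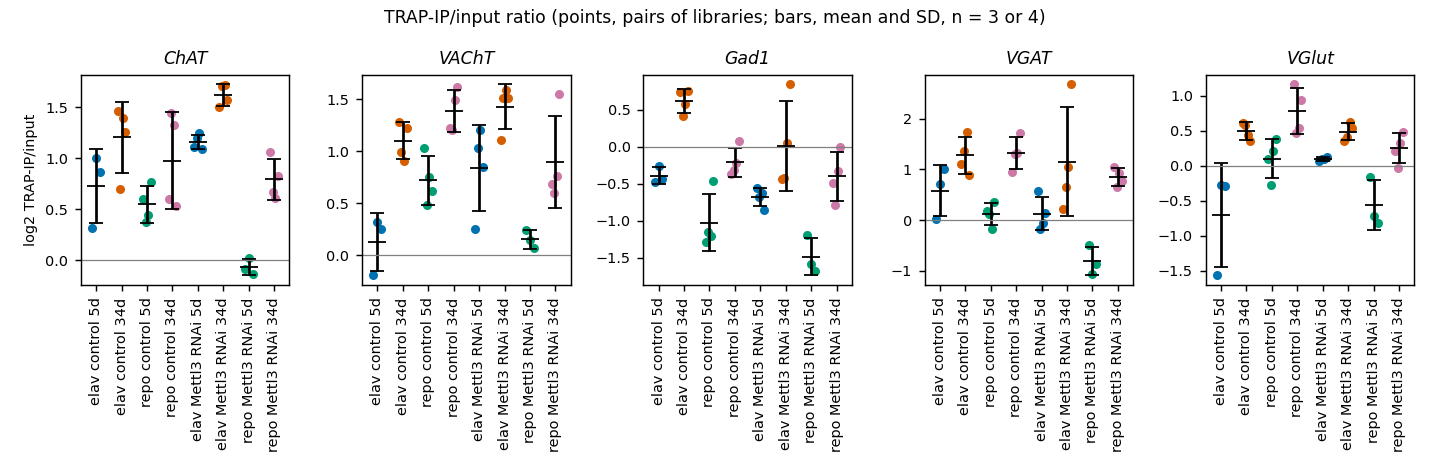
Log2 ratio of TRAP-IP to input for each member with the neuronal (elav) and the glial (repo) driver, with all TRAP libraries scaled together and an axis of its own for each gene. Points are pairs of libraries, bars the mean and SD of 3 or 4 pairs. Gad1 lies below input at 5d with both drivers, while ChAT lies above it in every group except glial Mettl3 RNAi at 5d.

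Age changed the TRAP-IP to input ratio of Gad1 with both drivers. In control the ratio was −0.48, −0.26 and −0.43 at 5d and 0.74, 0.41, 0.57 and 0.76 at 34d with the neuronal driver (1.00 ± 0.18, adjusted p = 0.0155; 1.25% of genes passed), where VAChT also rose (0.96 ± 0.20, adjusted p = 0.0369). With the glial driver it was −1.29, −1.15, −1.21 and −0.46 at 5d and −0.37, −0.32, −0.22 and 0.07 at 34d (0.83 ± 0.20, adjusted p = 0.0387; 3.91% of genes passed), where VGAT also rose (1.22 ± 0.24, adjusted p = 0.0114). Gad1 fell in the inputs over the same ages, and the ratio has the input below it.

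These calls did not hold without single pairs. With the neuronal driver Gad1 was lost without control 34d pair 1, 3 or 4 or control 5d pair 3 (adjusted p between 0.0533 and 0.0924) and VAChT without any 34d pair or 5d pair 3 (between 0.0635 and 0.155), while VGlut passed without 5d pair 1 (0.73, 0.0215) or pair 2 (1.33, 0.0443). With the glial driver Gad1 was lost without any 34d pair or 5d pair 1, 2 or 3 (between 0.0572 and 0.161) and VGAT without 5d pair 2 (0.0525) or 3 (0.0653). The median of all genes in the glial comparison was −0.18.

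The TRAP ratio of 1 member passed the test of Mettl3 RNAi. With the glial driver at 5d VGAT was at −0.50, −1.06 and −0.87 with the RNAi and at 0.19, 0.12, −0.18 and 0.35 in control, without overlap (−0.96 ± 0.21, adjusted p = 0.0416; 0.654% of genes passed), and the other 4 members had values from −0.48 to −0.69. The VGAT call was lost without RNAi pair 2 (−0.84, adjusted p = 0.214) or 3 (−0.91, 0.175) or control pair 1 (−0.93, 0.0527), 2 (−0.97, 0.104) or 3 (−1.05, 0.0528), and VGlut passed without RNAi pair 1 (−0.90, 0.0305). No member passed with the neuronal driver at 5d (1.54% of genes) or 34d (0%, with 851 of 10110 genes under 0.05 unadjusted and 28 called by DESeq2), though Gad1 passed at 34d without RNAi pair 4 (−0.92, adjusted p = 0.00132). None passed with the glial driver at 34d (0%, with 479 of 9946 genes under 0.05 and 19 called by DESeq2).

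Between the drivers, the neuronal TRAP-IP of control held more ChAT (0.87 ± 0.17, adjusted p = 0.00229) and VGAT (0.80 ± 0.21, adjusted p = 0.0139) than the glial one at 5d, 2 of 5 members with 33% of genes. ChAT was at 398, 474 and 459 CPM against 241, 250, 242 and 285 CPM, without overlap. At 34d it held more Gad1 (563, 427, 607 and 661 CPM against 257, 298, 265 and 293 CPM, 1.00 ± 0.15, adjusted p = 0.000594) and less VAChT (−0.47 ± 0.16, adjusted p = 0.0476), 2 of 5 with 20.2%. The neuronal TRAP-IP thus did not hold more of every member than the glial one. When each IP was set against its own input, 1 of these 4 calls remained, and ChAT at 5d was at 0.18 (adjusted p = 0.608).

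At 5d VGAT was lost without elav IP replicate 3 (0.62, adjusted p = 0.0771) or repo IP replicate 3 (0.73, 0.0518). Gad1 passed without elav IP replicate 1 (0.82, 0.00197) or repo IP replicate 4 (0.75, 0.036), and VGlut passed as lower without elav IP replicate 1 (−0.49, 0.0232). At 34d VAChT was lost without elav IP replicate 1, 2 or 4 or repo IP replicate 1, 3 or 4 (adjusted p between 0.0585 and 0.136), and VGlut passed as lower without repo IP replicate 3 (−0.72, 0.023).

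The TRAP inputs are further brain RNA of 5d and 34d flies, from other drivers than the heads. Gad1 fell in control with both. With the neuronal driver it went from 397, 585, 667 and 553 CPM to 244, 233, 294 and 281 CPM (−1.05 ± 0.17, adjusted p = 0.00103) and with the glial driver from 699, 578, 525 and 472 CPM to 242, 276, 223 and 204 CPM (−1.26 ± 0.15, adjusted p = 6.83e-05). VGAT fell from 53.5 to 61.9 CPM to 26.3 to 31.3 CPM (−0.91 ± 0.14, adjusted p = 0.000992) and from 43.9 to 50.4 CPM to 31.5 to 34.7 CPM (−0.51 ± 0.12, adjusted p = 0.00868). Neither gene's ages overlapped with either driver.

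ChAT fell with the neuronal driver, from 176 to 235 CPM to 105 to 138 CPM (−0.71 ± 0.15, adjusted p = 0.00665), and was at 113 to 139 CPM and 102 to 161 CPM with the glial driver (0.05 ± 0.14, adjusted p = 0.846). This made 3 of 5 members where 12.9% of genes passed with the neuronal driver and 2 of 5 where 25.3% did with the glial one. None of the 5 calls was lost by leaving out 1 library. VAChT (−0.34 ± 0.16 and −0.06 ± 0.16) and VGlut (−0.14 ± 0.16 and −0.15 ± 0.17) did not pass with either driver. The summed neuronal markers went from 5548 to 6231 CPM to 3997 to 4920 CPM with the neuronal driver and from 4741 to 5770 CPM to 4425 to 4898 CPM with the glial one. These inputs also held photoreceptor markers, with sums of 33160 to 40337 CPM at 5d and 33401 to 54608 CPM at 34d with the neuronal driver. With the glial driver the photoreceptor sums were 43597 to 46012 CPM and 39751 to 56274 CPM. The part of these markers was not tested.

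**Figure D5:**
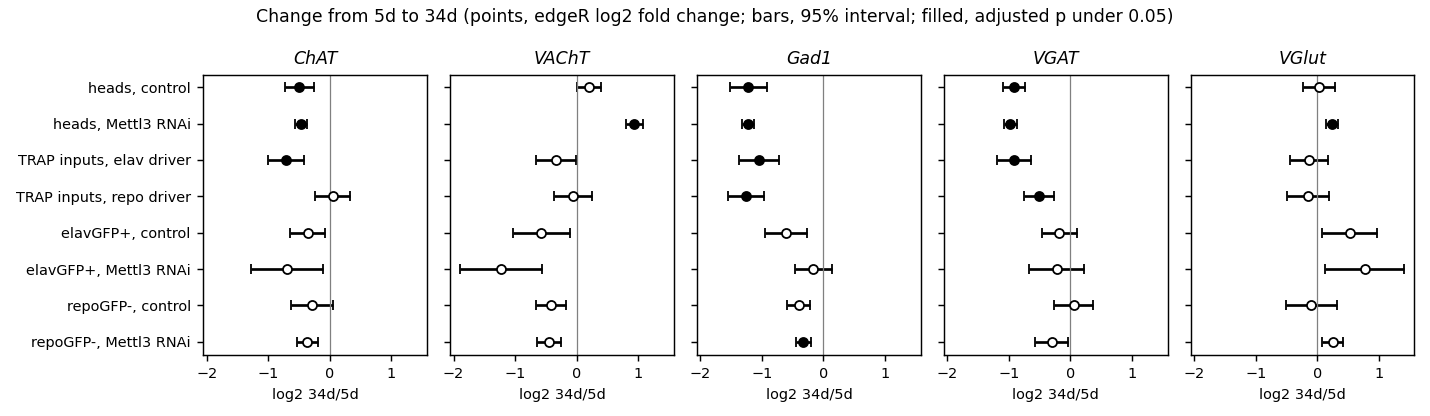
Log2 fold change from 5d to 34d of each member in 8 sets of libraries, by edgeR. Bars are approximate 95% intervals, normal and built from the SE, and filled points have an adjusted p under 0.05. Gad1 lies below 0 in all 8 sets and passes in 5, while VAChT lies above 0 in heads and below 0 in the others. The sets were scaled separately.

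No member passed with Mettl3 RNAi in the TRAP inputs, where 0.19% (neuronal driver, 5d), 0.43% (34d), 0.339% (glial driver, 5d) and 0.877% (34d) of genes passed. Mettl3 itself did not pass in them, with log2 fold changes of −0.56 ± 0.69 and −1.06 ± 0.36 with the neuronal driver at 5d and 34d and −0.34 ± 0.45 and −0.96 ± 0.40 with the glial one. Of the 10 GABAergic genes of the list 3 fell with age with the neuronal driver and 6 with the glial driver, and none rose, where 689 of 9462 and 1227 of 9379 genes fell. Gat fell by 1.45 ± 0.20 and 1.23 ± 0.12.

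The ratio of 2 members within a library does not depend on how libraries are scaled. In control heads the log2 ratio of ChAT to Gad1 counts was −2.48 ± 0.07 (SD, n = 3) in young and −1.76 ± 0.08 in old flies, higher by 0.72. With Mettl3 RNAi it was −2.55 ± 0.02 and −1.80 ± 0.03, and the ages did not overlap in either genotype. The ratio of Gad1 to VGlut fell by 1.24 in control and 1.47 in Mettl3 RNAi heads. In the exact two-sided permutation test over libraries each of these gave p = 0.1, the smallest that 3 against 3 allows.

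The shift away from Gad1 was also seen in the TRAP inputs of control flies with age, where 4 libraries a group allow an exact permutation p of 0.0286. Gad1 to VGlut fell by 0.90 with the neuronal and 1.11 with the glial driver, each with that p, and ChAT to Gad1 rose by 1.28 (p = 0.0286, exact) with the glial driver and by 0.33 (p = 0.229, exact) with the neuronal one. With Abeta42 ChAT to Gad1 was higher by 0.24 in heads and 0.34 in brains (exact p = 0.1 each). In elavGFP+ control neurons it changed by 0.23 with age (exact p = 0.4). Over 90 such comparisons the lowest exact permutation p after Benjamini-Hochberg adjustment was 0.281, so that none passed. With groups of this size no set of values could have passed, so the adjusted p decides nothing about these ratios.

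Enzyme and transporter of 1 transmitter did not keep a fixed ratio. The log2 ratio of VAChT to ChAT counts was −0.57 ± 0.11 (SD, n = 3) in control heads at 5d and 0.11 ± 0.09 at 34d, and −0.66 ± 0.05 and 0.74 ± 0.15 with Mettl3 RNAi. With Abeta42 it was lower by 0.23 in heads and by 0.16 in brains. VGAT to Gad1 was higher with Abeta42 by 0.49 in heads and by 0.50 in brains, and at 34d by 0.29 in control heads. None of the groups compared overlapped, and each exact permutation p was 0.1, the smallest that 3 against 3 or 2 against 3 allows. These 2 ratios were chosen after their values were seen.

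Members can also be compared by how they deviate together between sorts. Over the 14 elavGFP+ libraries, with group means removed, ChAT and VAChT had a Pearson r of 0.73 (permutation p = 0.00255, adjusted over 10 pairs 0.0255). Their Spearman rho was 0.74 (permutation p = 0.00339, adjusted 0.0339). Without the 2 libraries farthest from the median of ChAT r was 0.64. In the 12 repoGFP- libraries r of this pair was −0.45 (permutation p = 0.146, adjusted 0.243) and rho −0.55 (permutation p = 0.0701, adjusted 0.234). Gad1 and VGAT had r = 0.44 (adjusted permutation p = 0.371) and rho = 0.64 (adjusted permutation p = 0.0817) in elavGFP+ cells and r = 0.54 (adjusted permutation p = 0.243) and rho = 0.66 (adjusted permutation p = 0.221) in repoGFP- cells. No other pair passed in either sort. Over the 26 libraries together Gad1 and VGAT passed by rank (rho = 0.62, adjusted permutation p = 0.0077) and not by r (0.45, adjusted permutation p = 0.109). There ChAT and VAChT passed by r (0.59, adjusted permutation p = 0.0173) and not by rank (rho = 0.44, adjusted permutation p = 0.13). The libraries of a set share depth and protocol. The permutations shuffled the centred values over all libraries and made no allowance for the group means removed. These permutation p-values therefore run too small, and do not decide whether a pair deviates together.

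The spread of the members between sorts was larger in elavGFP+ than in repoGFP- cells, with a pooled SD on the log2 scale of 0.51 against 0.14 for VAChT, 0.27 against 0.12 for Gad1, 0.39 against 0.21 for ChAT, 0.30 against 0.23 for VGAT and 0.47 against 0.25 for VGlut. Over both sets together, 26 libraries, the genes most like ChAT were dj-1beta (r = 0.74), Mapmodulin (0.74) and Pdcd4 (0.74), with VAChT at rank 48 of 6791 genes with a mean of at least 10 CPM. VAChT was most like Cul2 (0.77), Mnn1 (0.77) and Mkp3 (0.77), Gad1 like CG14989 (0.89), wge (0.83) and Teh3 (0.73), VGAT like CG4820 (0.81), Crtc (0.78) and Liprin-alpha (0.78), and VGlut like mei-P26 (0.83), CG15270 (0.80) and CG15473 (0.79). These correlations are descriptions over libraries that share depth and protocol.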

How the data were processed

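RNA from heads, brains and sorted cells of male flies was measured in 140 libraries, all used here, and 17562 genes. The authors deposited raw counts per gene: reads were trimmed with Trim Galore, aligned to dm6 with STAR 2.7.3a and counted over exons with summarizeOverlaps in union mode, which drops a read that overlaps 2 genes. The strand setting is not given in the sources used here.

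Counts were tested with edgeR 4.0.16 (quasi-likelihood, TMM scaling, filterByExpr, R 4.3.3) on the libraries of each comparison, with Benjamini-Hochberg adjustment over all genes tested and a threshold of 0.05. Ratios of IP to input used the pair of libraries as a block. CPM values and plotted ratios were scaled over all libraries of a set and the fits over those of a comparison. Plotted ratios can therefore differ slightly from fitted ones. Each SE was derived from the fold change and its test statistic, and the intervals are normal approximations built from that SE. A prior count of 2 was used on the log2 scale for the correlations and the spread between sorts. RPKM and the shared exon bases used an annotation of the Release 6 assembly from another release than the FlyBase one the authors counted on. Lengths and sharing can therefore differ from those of the counting. Ratios of members were tested by exact permutation, and correlations by 100000 permutations.

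Groups came from the sample labels. The sources do not say throughout that replicates are separate animals, so p-values measure the spread between these libraries. The members are always named; of a list of 38 transmitter genes those past the threshold with the largest change in each direction were eligible, and for each member the 3 genes most like it. The members, lists and comparisons were chosen with earlier results of these data known. Alternatives were DESeq2 1.42.0, RLE scaling, other filters on low counts (none, or a mean count of at least 50), the replicate number as a block or no block, all groups fitted together, and each library left out. Counts were also simulated with genes changed by 1 on the log2 scale. For the m6A ratio with age in control heads 58% of 100 such genes were recovered (10583 tested), and for Abeta42 brains 94% (10040 tested). The spread between simulated libraries was set at the same value for all genes and not taken from these data. Smaller changes of ChAT and VAChT were called in the real m6A comparison. These shares therefore do not show which changes can be missed there.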

Additional observations from a re-analysis of the deposited data

Results flagged for a closer look

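Of 110 groups of 4 or more libraries, 7 held a library far from the others, where chance gives about 1 in 20. All 7 came from TRAP, as did most of the groups of this size, the others being elavGFP+ cells at 34d. Heads, brains and repo sorts had too few libraries a group for this rule. In level these were ChAT in the elav Mettl3 RNAi input at 5d (replicate 3, 171 CPM), Gad1 in the elav Mettl3 RNAi IP at 34d (replicate 4, 597 CPM), VAChT in the elav control IP at 34d (replicate 3, 263 CPM), VAChT in the repo control input at 34d (replicate 1, 112 CPM) and VGAT in the elav control input at 34d (replicate 2, 26.3 CPM). In the log2 ratio of IP to input they were Gad1 in repo control at 5d (replicate 4, −0.46) and VAChT in elav Mettl3 RNAi at 34d (replicate 1, 1.11).

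The change of VAChT with age in heads differed between genotypes by 0.73 on the log2 scale, by the edgeR test of the difference itself (adjusted p = 0.0212).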

How the results depend on the processing

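The results are summarised here as how many values of the 5 members passed the threshold in each family of comparisons, a summary chosen after the data were seen. The count stayed at 9 for age in head inputs under each alternative test, scaling, filter and block (7 to 10 without single libraries), at 26 for TRAP-IP against input (25 to 27) and at 5 or 6 for the TRAP inputs. DESeq2 called 1 in place of 2 for the m6A ratio with Abeta42, 1 in place of 0 in sorted neurons, 4 in place of 1 within the repo sorts and 10 in place of 5 for the change of the TRAP ratio. Without a filter on low counts the last 2 families gave 4 and 8, and the stricter filter gave 2 in the repo sorts. All groups fitted together gave 1 in sorted neurons and 0 in the repo sorts. When the IP to input ratio was compared between drivers, 1 in place of 4 values passed. Leaving out single libraries gave 3 to 6 for Abeta42 (main value 5), 0 to 2 for its m6A ratio, 0 to 1 in sorted neurons, 1 to 5 for repoGFP+ against repoGFP- cells (main value 4), 0 to 2 within the repo sorts and 2 to 6 for the change of the TRAP ratio.

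In no comparison of levels did every same-numbered pair deviate together with a correlation over 0.1, so the main fits of levels used no replicate block. Some comparisons had all pairs above 0, such as Mettl3 RNAi against control in the glial TRAP inputs at 34d (0.08 to 0.20). Others had pairs below 0. Same-numbered pairs were not set against differently numbered ones, so weaker pairing was not tested. With the replicate number as a block, 3 in place of 5 values passed with Abeta42 and 0 in place of 1 within the repo sorts. Without the block of input and IP pairs, 14 in place of 22 passed for the m6A ratio of aging heads, 0 in place of 2 for that with Abeta42 and 2 in place of 5 for the change of the TRAP ratio.

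With summed ChAT and VAChT against summed Gad1 and VGAT, the balance changed with age by 1.00 (0.72 with ChAT and Gad1 alone) in control and 1.45 (0.76) in Mettl3 RNAi heads, and with Abeta42 by 0.049 (0.24) in heads and 0.16 (0.34) in brains. The correlation of ChAT and VAChT in repoGFP- cells turned from −0.45 to 0.59 over 26 libraries together, since the elavGFP+ libraries enter there, and that of Gad1 and VGAT was 0.76 without 2 libraries. Of 3345 single values under alternatives 139 lost a call, 65 gained one, 81 that were called in neither fit moved by over 1 SE and the other 3060 did none of these. No called value changed sign, while 155 of 2405 values called in neither fit did. Causes were not tested.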
